A study of Homo sapiens with 6 samples.

Results

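The 10 genes described here encode the switch that takes a cell from G1 into S phase at the level of the D cyclins: CCND1, CCND2 and CCND3, their kinase CDK4, the CDK inhibitors CDKN2C, CDKN2D, CDKN1B and CDKN1C, and the pocket proteins RB1 and RBL2. They were chosen by gene symbol from the deposited table of read counts, in which each symbol had a single row, and make up 10 of 31966 genes. RNA came from bulk cultures of Kasumi-1, a long-established human cell line from acute myeloid leukaemia that carries the RUNX1-RUNX1T1 fusion. The FBL knockdown group (n = 3) carried an inducible hairpin against FBL, the gene of the ribosomal RNA methyltransferase fibrillarin, and the control group (n = 3) a hairpin against luciferase. Cells of both groups received doxycycline at 100 ng/ml for 72 h, so exposure to the drug was shared and each group rests on the hairpin that its label names. The labels do not state that replicates were separate cultures. A p-value here therefore sets the difference between groups against the spread of these samples only, and that spread may be technical. In bulk RNA, fewer cells with a transcript and less of it in each cell cannot be told apart.

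D cyclins bind and activate CDK4, and the pair phosphorylates the pocket proteins, which otherwise hold E2F transcription factors in check. Inhibitors of the INK4 family (CDKN2C, encoding p18, and CDKN2D, encoding p19) bind the kinase and block its pairing with cyclin. CIP/KIP inhibitors (CDKN1B, encoding p27, and CDKN1C, encoding p57) bind whole cyclin-kinase complexes and restrain CDK2 in particular. In blood cells CCND2 and CCND3 are the usual D cyclins, and CDKN1C is associated with quiescent stem cells.

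Depth was 85556322 to 95023102 counts in knockdown libraries and 88541034 to 103148412 in control libraries. FBL itself was at 54.0, 32.4 and 44.9 CPM (counts scaled to 1e6 per library) in knockdown libraries, against 580.4, 549.7 and 544 CPM in control libraries, so every library matched its label. All 8 markers of a myeloid leukaemia line were found, and they summed to 5200 to 6220 CPM in knockdown and 6940 to 8430 CPM in control libraries. B cell markers (3 of 4 found) summed to 1.46 to 1.78 CPM in knockdown and 1.22 to 1.45 CPM in control libraries, and T cell markers (4 of 5 found) to 0.119 to 0.26 and 0.316 to 0.43 CPM. Erythroid (4 of 5 found), fibroblast (2 of 5 found) and epithelial markers (4 of 4 found) each summed to at most 0.141 CPM in any library. Mitochondrial genes took 14.7% to 18.8% of counts in knockdown and 12.4% to 15.2% in control libraries, and the part of this in the results was not tested. The quasi-likelihood test of edgeR was run over 18486 genes, and a gene was called at a Benjamini-Hochberg adjusted p under 0.05. Of the 8 leukaemia line markers, 1 was called higher, 1 lower and 6 were not called, with a median log2 fold change of -0.04. The lower sum in knockdown libraries was therefore not a fall of most of these markers. Over all tested genes, 32.8% were called. Mean GC content of the counted transcripts was highest in knockdown replicate 1 (54.27%) and control replicate 2 (54.45%) and ran from 53.48% to 53.91% in the other 4 libraries.

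All 10 genes passed the filter on low counts, and 5 were called. CCND3, CDKN1C and RBL2 rose, and CCND2 and CDKN2C fell. The 3 higher members compare with 15.8% of all tested genes called higher, the 2 lower members with 17.0% called lower, and the 5 in all with 32.8% called in either direction. Knockdown and control CPM did not overlap for 7 of the 10, against 45.2% of all tested genes. The members were chosen with earlier results of these data known, so these counts hold for the 10 genes only. The median log2 fold change of the 10 was 0.01, beside -0.01 for all genes tested. Under upper-quartile scaling the calls over all genes were 3597 higher and 2528 lower, in place of 2920 and 3141, and the members were then 4 higher and 1 lower.

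**Figure D1:**
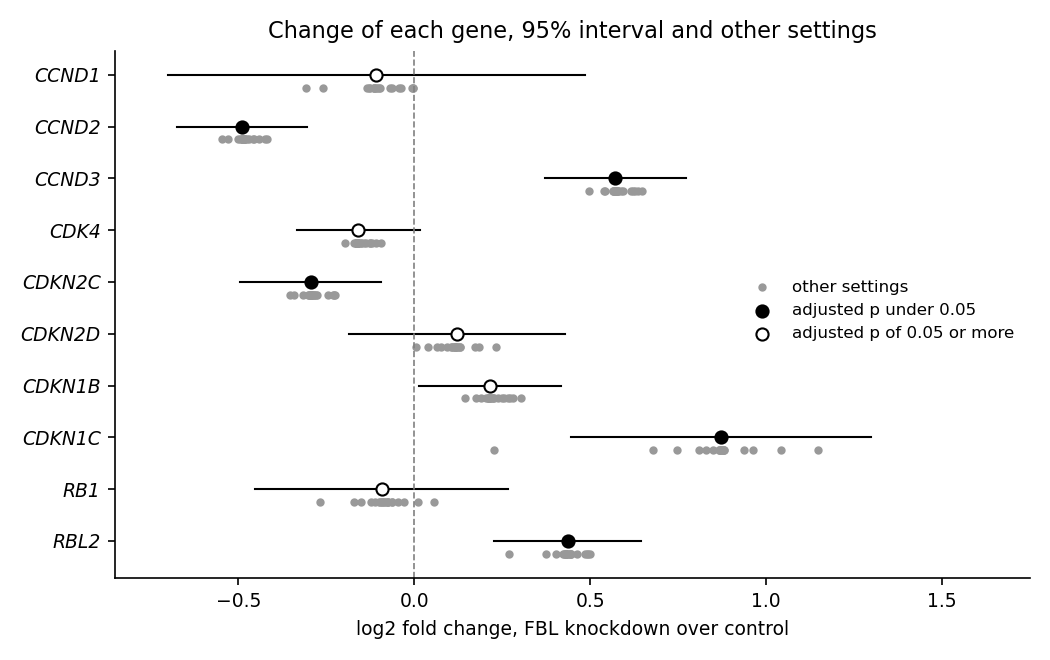
Log2 fold change of each of the 10 genes, FBL knockdown over control (n = 3 each), with its 95% interval as a line. Filled circles passed edgeR's test at an adjusted p under 0.05, and grey points are the values in the other settings tried. CCND3, CDKN1C and RBL2 lie to the right of 0 and CCND2 and CDKN2C to the left, with intervals that leave out 0, as does that of CDKN1B, which did not pass the adjusted test.

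Among the D cyclins, which activate CDK4, CCND3 was higher and CCND2 lower after knockdown. CCND3 (ENSG00000112576; minus strand of chromosome 6, bases 41934933 to 42050357 of GRCh38) gave 143, 134 and 134 CPM in knockdown libraries, against 83.1, 102 and 91.7 CPM in control libraries. Each knockdown library was above each control library. The rise was 0.57 ± 0.09 on the log2 scale (SE), 1.49-fold with a 95% interval of 1.29 to 1.71 (edgeR adjusted p = 0.00093). CCND2 (ENSG00000118971, chromosome 12, 4273772 to 4305350, plus strand) was at 32.9, 33.2 and 33.5 CPM in knockdown libraries, against 49.1, 43.0 and 47.8 CPM in control libraries. The coefficient of variation of the knockdown values was 0.883%, and all were below the lowest control. CCND2 fell by 0.49 ± 0.08 on the log2 scale, or to 0.712 of the control level with an interval of 0.627 to 0.809 (edgeR adjusted p = 0.00136). Neither call was lost in any of the 20 other settings tried. CCND2 shares 989 exon bases with AC008012.1 on the same strand, for which the deposited counts hold no row.

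CCND1 (ENSG00000110092, chromosome 11, 69641087 to 69654474, plus strand), the D cyclin of many epithelial and lymphoid tumours, was close to absent. It had 25, 17 and 17 reads in knockdown libraries, against 21, 24 and 23 reads in control libraries, which is 0.184 to 0.271 CPM and 0.225 to 0.246 CPM. The groups overlapped. Its log2 fold change was -0.11 with a 95% interval of -0.70 to 0.48 (edgeR adjusted p = 0.789). Changes in either direction within that interval remain compatible with these reads. Counting error alone gives 59 knockdown reads an exact Poisson interval of 44.9 to 76.1 and 68 control reads one of 52.8 to 86.2. CCND1 shares 497 exon bases with LTO1 on the opposite strand, whose 3806 reads over all libraries exceed the 127 of CCND1, and the strand setting of the counting is not given in the sources used here.

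By RPKM (reads per kilobase of gene length and 1e6 reads), the make-up of the D cyclins differed between the groups. The deposited gene lengths, 7157 bases for CCND2 and 5802 for CCND3, equal all annotated exons of the gene merged. They are not lengths of the transcripts expressed here, so the size of any share or ratio between genes depends on them. CCND3 supplied 84.1%, 83.2% and 83.1% of the summed D cyclin RPKM in knockdown libraries, against 67.5%, 74.4% and 70.2% in control libraries. CCND2 supplied 16.4% ± 0.6 in knockdown and 29.1% ± 3.5 in control libraries (SD, n = 3 each). CCND3 exceeded CCND2 5.10-fold ± 0.22 in knockdown and 2.46-fold ± 0.43 in control libraries (RPKM ratio, SD, n = 3 each). The sum of the D cyclins was 29.7, 27.5 and 27.6 RPKM in knockdown libraries, against 21.2, 23.8 and 22.6 RPKM in control libraries, so the groups did not overlap in the total either.

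**Figure D2:**
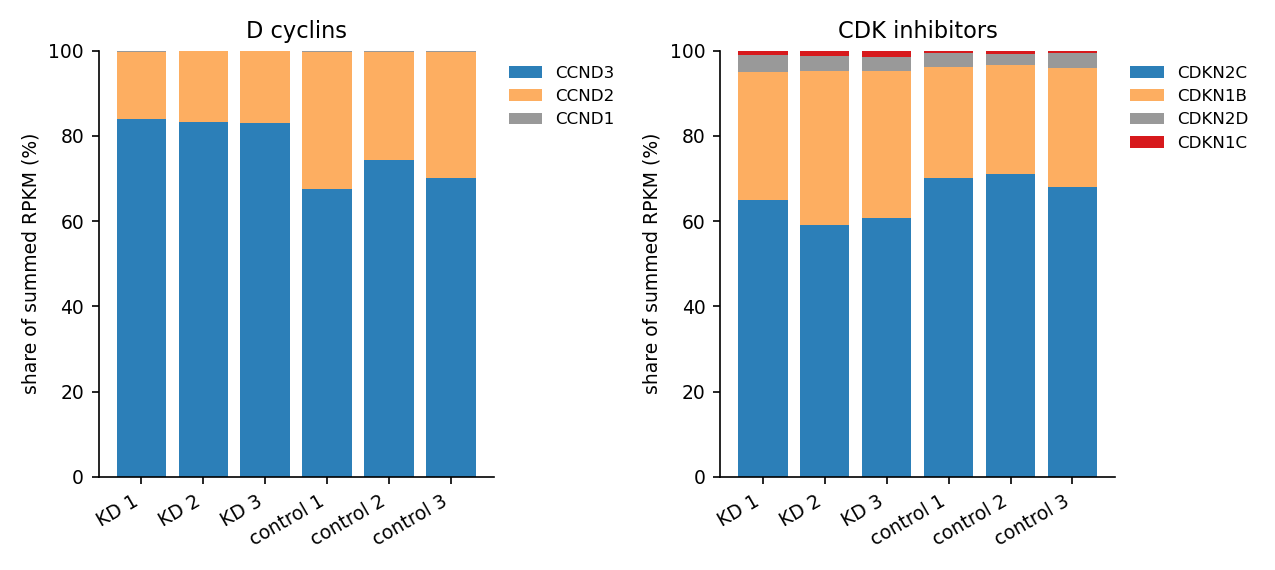
Share of each gene in the summed RPKM of the D cyclins (left) and of the 4 CDK inhibitors (right), 1 bar for each library (KD, FBL knockdown). CCND3 takes 83.1% to 84.1% of the D cyclin bar in knockdown libraries and 67.5% to 74.4% in control libraries, and CDKN2C takes 59.1% to 64.9% of the inhibitor bar in knockdown and 67.9% to 71.0% in control libraries.

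CDK4 (ENSG00000135446, chromosome 12, 57747727 to 57756013, minus strand), the kinase partner, was the most abundant of the 10 and ranked 203 among the 18486 tested genes by mean RPKM. It was at 943, 911 and 939 CPM in knockdown libraries, against 991, 1089 and 1039.5 CPM in control libraries. All knockdown values were below all control values, but the gap was small. The log2 fold change was -0.16 ± 0.08 with an interval of -0.33 to 0.02 and did not pass (edgeR adjusted p = 0.148, from 0.109 to 0.401 in the other settings). CDK4 shares 1369 of its 3168 exon bases with TSPAN31 on the opposite strand, a tetraspanin gene that held 295140 reads over all libraries beside 558098 for CDK4. TSPAN31 was at 504, 484 and 519 CPM in knockdown libraries, against 527, 545 and 550.0 CPM in control libraries (log2 fold change -0.11 ± 0.08, edgeR adjusted p = 0.313), and reads of the shared bases cannot be told apart here. Summed D cyclin RPKM per 100 RPKM of CDK4 was 9.64 ± 0.22 in knockdown and 6.84 ± 0.05 in control libraries (SD, n = 3 each), without overlap.

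Promoter windows are printed for the called genes with 1 annotated principal transcript and a RefSeq start at most 51 bases from its start. The window of CDK4 is printed because it is the most abundant member, although its RefSeq start lies 211 bases from the principal start. RefSeq (GRCh38.p14) windows of 250 bases before to 50 after a start were at hand for 7 of the 10 genes. Capitals mark matches on either strand to the E-box CACGTG, the site of MYC and related factors, the GC box GGGCGG of SP-family factors, the CCAAT box, the E2F-type letters TTTNNCGC, the CHR element TTTGAA known from cell cycle genes, and the FOXO letters TGTTTAC. No capitals belong to 2 motifs at a time. The windows are chr6:41941759-41942058 (minus strand), chr16:53434221-53434520 (plus strand) and chr12:57752261-57752560 (minus strand).
CCND3: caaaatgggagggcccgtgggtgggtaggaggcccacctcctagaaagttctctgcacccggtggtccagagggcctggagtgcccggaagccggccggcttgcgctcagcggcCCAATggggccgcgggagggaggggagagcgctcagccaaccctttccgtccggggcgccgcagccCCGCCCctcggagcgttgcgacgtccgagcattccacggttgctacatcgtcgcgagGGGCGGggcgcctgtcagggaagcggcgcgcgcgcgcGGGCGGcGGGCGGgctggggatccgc
RBL2: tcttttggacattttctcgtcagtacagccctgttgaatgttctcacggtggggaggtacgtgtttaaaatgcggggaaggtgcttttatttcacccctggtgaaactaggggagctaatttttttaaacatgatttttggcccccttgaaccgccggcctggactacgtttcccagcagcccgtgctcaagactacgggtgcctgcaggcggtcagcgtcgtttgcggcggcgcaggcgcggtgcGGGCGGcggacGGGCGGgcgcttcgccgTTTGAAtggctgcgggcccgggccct
CDK4: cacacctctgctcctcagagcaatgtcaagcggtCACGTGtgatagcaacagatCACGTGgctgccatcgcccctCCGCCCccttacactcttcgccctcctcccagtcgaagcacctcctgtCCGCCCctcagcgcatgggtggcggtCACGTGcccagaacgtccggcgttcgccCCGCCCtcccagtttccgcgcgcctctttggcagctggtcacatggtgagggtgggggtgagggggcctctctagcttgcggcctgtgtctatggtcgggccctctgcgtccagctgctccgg

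The CCND3 window held 4 GC boxes and 1 CCAAT box, the RBL2 window 2 GC boxes and 1 CHR match, and the CDK4 window 3 E-boxes and 3 GC boxes. Over all 35116 windows of the same length, an E-box was found in 7.26%, a GC box in 45.0%, a CCAAT box in 34.6%, the CHR letters in 15.2%, the E2F-type letters in 6.89% and the FOXO letters in 3.42%. These matches describe the letters of the windows and not bound sites.

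Of the INK4 inhibitors, CDKN2C fell and CDKN2D did not pass the test. CDKN2C (ENSG00000123080, chromosome 1, 50960745 to 50974633, plus strand) was the most abundant inhibitor and stood at 85.3, 77.5 and 74.6 CPM in knockdown libraries, against 94.6, 106 and 90.8 CPM in control libraries. The groups did not overlap, although the highest knockdown and the lowest control library lay close together. CDKN2C fell by 0.29 ± 0.09 on the log2 scale, to 0.815 of the control level with an interval of 0.71 to 0.936 (edgeR adjusted p = 0.0287). The call was lost in 6 of 20 other settings: without knockdown replicate 2 (adjusted p = 0.102), without knockdown replicate 3 (0.19), without control replicate 2 (0.0633), under upper-quartile scaling (0.0605), without a filter (0.0505) and with a replicate block (0.0811). CDKN2D (ENSG00000129355, chromosome 19, 10566462 to 10569059, minus strand) was at 2.35, 2.15 and 1.87 CPM in knockdown libraries, against 1.93, 1.83 and 2.10 CPM in control libraries. Its groups overlapped, and the log2 fold change of 0.12 ± 0.14 had an interval of -0.19 to 0.43 (edgeR adjusted p = 0.541).

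Among the CIP/KIP inhibitors the rarer gene had the larger change. CDKN1C (ENSG00000129757, chromosome 11, 2883213 to 2885773, minus strand) had 98, 114 and 122 reads in knockdown libraries, against 59, 80 and 56 reads in control libraries. In CPM this was 1.06, 1.24 and 1.38 in knockdown and 0.633, 0.819 and 0.554 in control libraries, with every knockdown library above every control library. The rise was 0.87 ± 0.19 on the log2 scale, 1.83-fold with an interval of 1.36 to 2.46 (edgeR adjusted p = 0.00596). This change was larger than that of 91.8% of tested genes, regardless of direction. On log2(RPKM + 1) it was 0.23, since the pseudocount exceeds the level of the gene, and the stricter filter on low counts removed CDKN1C from the test.

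CDKN1B (ENSG00000111276, chromosome 12, 12715058 to 12722371, plus strand) was at 33.5, 40.0 and 35.7 CPM in knockdown libraries, against 29.9, 32.3 and 31.8 CPM in control libraries. The lowest knockdown value exceeded the highest control value. The log2 fold change was 0.22 ± 0.09 with an interval of 0.01 to 0.42, and it did not pass over all genes (edgeR adjusted p = 0.0934). It passed under upper-quartile scaling (adjusted p = 0.0373), with the stricter filter (0.0399), with a GC correction (0.0126) and without knockdown replicate 1 and control replicate 2 together (0.0177), a setting added after the data were seen. CDKN1B RPKM per 100 RPKM of CDK4 was 4.42 ± 0.48 in knockdown and 3.40 ± 0.05 in control libraries (SD, n = 3 each).

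The 4 inhibitors together summed to 40.2, 39.0 and 36.6 RPKM in knockdown libraries, against 40.6, 45.2 and 40.4 RPKM in control libraries. The highest knockdown sum was just under the lowest control sum. CDKN2C supplied 61.6% ± 3.0 of that sum in knockdown and 69.7% ± 1.6 in control libraries, and CDKN1B 33.5% ± 3.1 and 26.6% ± 1.3 (SD, n = 3 each). CDKN1C supplied 1.23% ± 0.20 in knockdown and 0.613% ± 0.088 in control libraries. Relative to CDK4 the inhibitor sum overlapped between groups, at 13.2 ± 0.6 RPKM per 100 of CDK4 in knockdown and 12.8 ± 0.4 in control libraries (SD, n = 3 each).

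Of the pocket proteins, RBL2 rose and RB1 did not pass the test. RBL2 (ENSG00000103479, chromosome 16, 53433977 to 53491649, plus strand), which encodes p130, the pocket protein of resting cells and of the DREAM repressor complex, stood at 13.2, 15.6 and 14.4 CPM in knockdown libraries, against 10.7, 10.5 and 10.8 CPM in control libraries. The groups were well apart and the controls nearly equal. RBL2 rose by 0.44 ± 0.10 on the log2 scale, 1.35-fold with an interval of 1.17 to 1.56 (edgeR adjusted p = 0.00548), and kept its call in all 20 other settings, with 0.27 on log2(RPKM + 1). Its exons share 610 bases with AKTIP and 721 with AC007342.6 on the opposite strand. AKTIP, at 1219 reads over all libraries beside 7044 for RBL2, had a log2 fold change of 0.35 ± 0.13 and did not pass (edgeR adjusted p = 0.052). The same was true of AC007342.6 with 846 reads (0.41 ± 0.16, edgeR adjusted p = 0.0747).

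RB1 (ENSG00000139687, chromosome 13, 48303726 to 48599436, plus strand), the retinoblastoma tumour suppressor, was at 13.9, 18.1 and 17.0 CPM in knockdown libraries, against 21.0, 13.0 and 18.2 CPM in control libraries. The control range enclosed all knockdown values. The log2 fold change was -0.09 ± 0.16 with an interval of -0.45 to 0.27 (edgeR adjusted p = 0.698). It turned to 0.01 without knockdown replicate 1 and to 0.06 without control replicate 1, and was -0.27 without control replicate 2 (adjusted p = 0.0773). The lowest value of each group came from the library richest in GC, and the longest RB1 transcript has 37.3% GC, the lowest of the 10 genes, beside a median of 49.6% over tested genes. With a GC correction for each library the SE of RB1 was 0.09 and its log2 fold change -0.12 (edgeR adjusted p = 0.278). Without the 2 libraries richest in GC it was -0.15 ± 0.10 (edgeR adjusted p = 0.231). RB1 exceeded RBL2 1.34-fold ± 0.08 in knockdown and 1.94-fold ± 0.43 in control libraries (RPKM ratio, SD, n = 3 each).

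**Figure D3:**
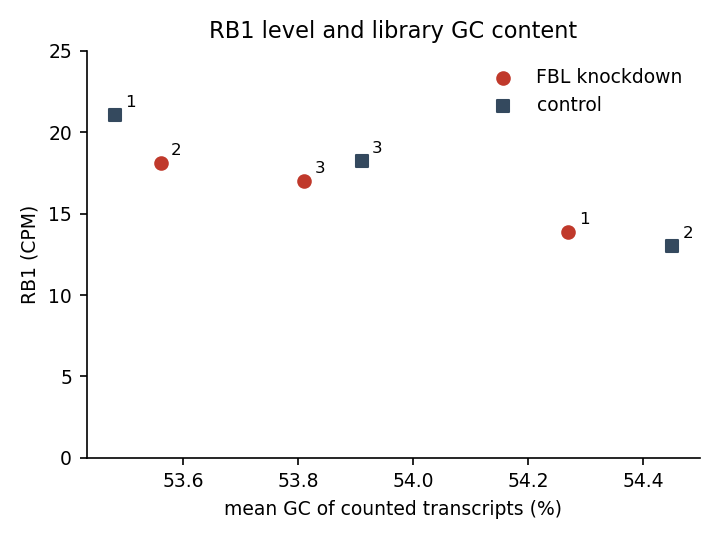
RB1 level (CPM) in each library against the mean GC content of its counted transcripts (%), with replicate numbers beside the points. Knockdown replicate 1 (13.9 CPM) and control replicate 2 (13.0 CPM), at the right, are the lowest of their groups.

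By RPKM the 10 genes spanned several orders of magnitude. Mean levels in knockdown and control libraries were 293 and 329 RPKM for CDK4, 23.8 and 29.3 for CDKN2C, 23.6 and 15.9 for CCND3, and 12.9 and 11.2 for CDKN1B. CCND2 followed at 4.63 RPKM in knockdown and 6.52 in control libraries, RB1 at 2.64 and 2.83, RBL2 at 1.96 and 1.46, and CDKN2D at 1.41 and 1.30. CDKN1C was at 0.472 RPKM in knockdown and 0.259 in control libraries, and CCND1 at 0.0447 and 0.0483. Neighbours in this order did not overlap in either group, with the exception of CDKN2C and CCND3, which overlapped in knockdown libraries but were apart in controls. By RPKM, CDKN2C was the second most abundant of these genes in control libraries, and in knockdown libraries it was level with CCND3 within the spread. This order depends on the gene lengths used. In CPM, which is not scaled by length, CCND3 and CDKN2C had means of 137 and 79.1 in knockdown libraries and 92.3 and 97.1 in control libraries.

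**Figure D4:**
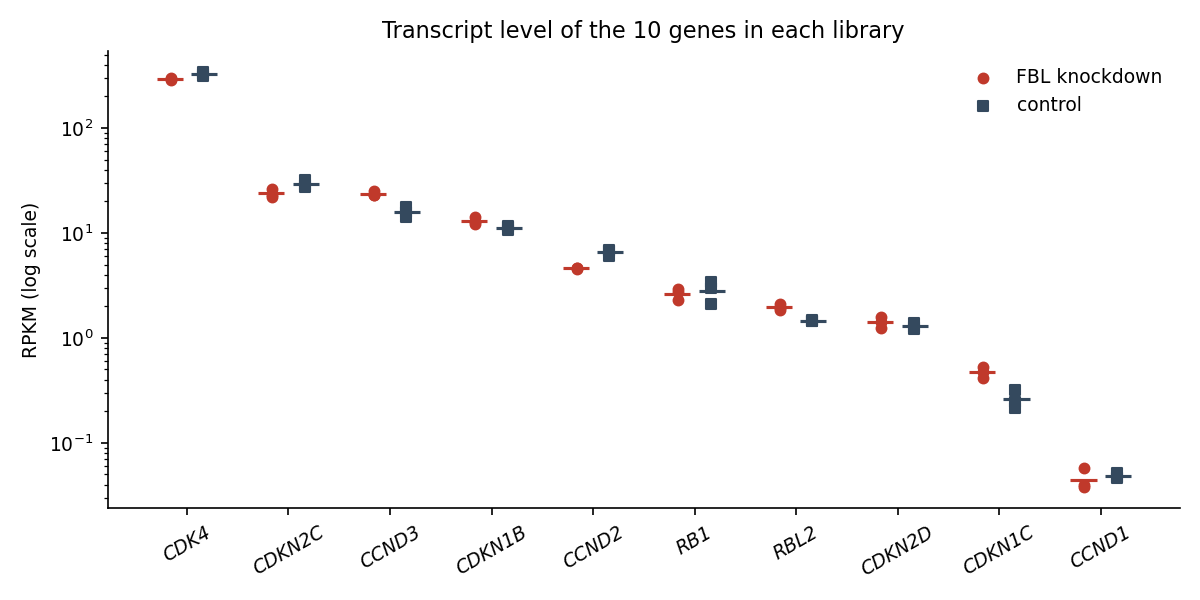
RPKM (log axis) of the 10 genes in each library, ordered by mean level, with FBL knockdown libraries as circles, control libraries as squares and horizontal lines at the means. CDK4 lies near 300 RPKM and CCND1 below 0.1 RPKM, and the circles of CCND3 sit level with those of CDKN2C.

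Genes most like CDK4 and CCND3 were sought among the 7208 other tested genes with a mean of at least 10 CPM, by the root-mean-square distance of log2 CPM centred on each gene over the 6 libraries. RNF5 (distance 0.0177), DGUOK (0.019) and MARCKSL1 (0.0206) lay nearest to CDK4, where the median distance was 0.181. CDR2L (0.0261), TGFB1I1 (0.0276) and SLC12A7 (0.0312) lay nearest to CCND3, beside a median of 0.348.

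Other genes of the G1 pathway were counted in lists of known function. Values in brackets are log2 fold changes with SE, knockdown over control, with the median log2 fold change of all tested genes at -0.01. The list of genes known to be activated by E2F factors had 32 members, most of them for DNA replication. In it 27 were called lower and 0 higher (median -0.74), where 17.0% of all tested genes were called lower and 15.8% higher. It was chosen with earlier results of these data known and does not cover every E2F-activated gene, so these counts hold for its members only. The smallest p-values were those of the helicase subunits MCM7 (-1.63 ± 0.12) and MCM2 (-1.05 ± 0.09), the methylation factor UHRF1 (-1.30 ± 0.10) and the flap endonuclease FEN1 (-1.09 ± 0.09), with edgeR adjusted p from 1.73e-05 to 3.47e-05. Of the 10 E2F and DP factors, 3 rose, 1 fell and 6 did not pass, beside 32.8% of all tested genes called. TFDP1 (0.32 ± 0.08), E2F5 (0.42 ± 0.11) and E2F4 (0.29 ± 0.08), the last 2 being partners of pocket proteins in repression, rose, and the activator E2F2 (-0.27 ± 0.08) fell, with a median of 0.17 and edgeR adjusted p from 0.0117 to 0.0199. E2F6 (0.25 ± 0.09, edgeR adjusted p = 0.0607) and TFDP2 (-0.20 ± 0.08, edgeR adjusted p = 0.0778) were the closest of those that did not pass. The 4 calls fell to 1 without knockdown replicate 2 (E2F4) and to 1 without control replicate 3 (E2F5).

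All 3 chaperones of CDK4 in the list fell, with a median of -0.85, beside 17.0% of all tested genes called lower. Like the other lists, this list was chosen with earlier results of these data known, so the count holds for these 3 genes only. CDC37, which loads kinases onto HSP90, was at 94.8, 80.3 and 88.2 CPM in knockdown libraries, against 149, 151 and 145 CPM in control libraries (-0.76 ± 0.08, edgeR adjusted p = 0.000126). The log2 fold change was -1.34 ± 0.15 for HSP90AB1 and -0.85 ± 0.14 for HSP90AA1, which encode HSP90 itself (edgeR adjusted p of 0.000113 and 0.00123). Of 14 tested genes for other cyclin-dependent kinases, their cyclins and activators, 4 fell and 1 rose, with a median of -0.13, a share near the 32.8% of all tested genes called. The phosphatase CDC25A (-0.92 ± 0.09), cyclin E1 (CCNE1, -0.35 ± 0.08) and its kinase CDK2 (-0.34 ± 0.09) fell, and the Mediator kinase CDK8 (0.67 ± 0.13) rose, with edgeR adjusted p from 4.81e-05 to 0.0117. CDK3 (-0.39 ± 0.30, edgeR adjusted p = 0.35) and CCNE2 (-0.20 ± 0.17, edgeR adjusted p = 0.382) did not pass. Without knockdown replicate 3 the list held 2 calls in place of 5, with CCNE1 (edgeR adjusted p = 0.0684) and CDK2 (0.0795) among those lost. CDC25A, CCNE1, CCNE2 and CCNA2 were counted both here and among the E2F-activated genes, so these lists are not separate.

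A list of 9 further genes held the pocket protein RBL1, the MuvB core of the DREAM complex and factors tied to either. In it FOXM1 (0.41 ± 0.08) rose and RBBP4 (-0.53 ± 0.11) fell, with edgeR adjusted p of 0.00245 and 0.00514. The median was 0.01, while 32.8% of all tested genes were called. LIN37 (0.24 ± 0.13, edgeR adjusted p = 0.202) and MYBL2 (0.18 ± 0.11, edgeR adjusted p = 0.25) did not pass. Among 9 tested genes of D cyclin turnover 3 fell and 1 rose, with a median of -0.02, beside 32.8% of all tested genes called. DDB1 (-0.92 ± 0.12) and AMBRA1 (-0.35 ± 0.08), which belong to the ubiquitin ligase for D cyclins, and FBXO31 (-0.30 ± 0.09) fell, whereas the kinase GSK3A (0.36 ± 0.09) rose, with edgeR adjusted p from 0.000273 to 0.0264. The 4 calls fell to 2 without knockdown replicate 3 (DDB1 and GSK3A) and to 2 without control replicate 3 (DDB1 and AMBRA1). Of 10 genes of p27 turnover RNF123 (-0.51 ± 0.10, edgeR adjusted p = 0.00307), a ligase subunit for free p27, fell and 0 rose, with a median of -0.10, beside 32.8% of all tested genes called. The count was 3, all lower, without control replicate 2 and 2, 1 of them higher, without knockdown replicate 1. Of 10 FOXO and AKT pathway genes FOXO6 rose (0.88 ± 0.24, edgeR adjusted p = 0.0171) at 0.350 to 0.466 CPM in knockdown and 0.208 to 0.266 CPM in control libraries, 0 fell, and the median was 0.07, beside the same 32.8%. FOXO6 lost its call without knockdown replicate 1 (edgeR adjusted p = 0.0538), without knockdown replicate 2 (0.07), without control replicate 3 (0.0713) and in DESeq2 (0.051), and the stricter filter removed it.

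**Figure D5:**
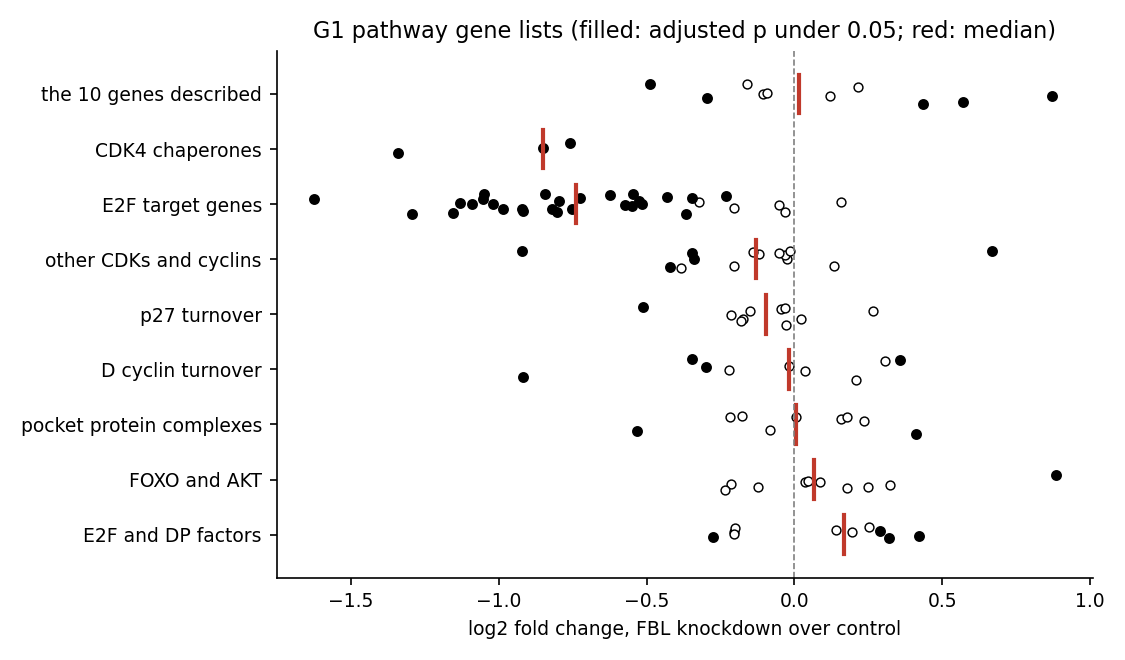
Log2 fold change, FBL knockdown over control, of each tested gene in the G1 pathway lists, with filled circles for an adjusted p under 0.05, open circles for the others and a red line at each median. CDK4 chaperones (median -0.85) and most of the listed E2F target genes (median -0.74) lie left of 0, and the 10 genes described (median 0.01) lie on both sides. The lists were chosen with earlier results of these data known.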

How the data were processed

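RNA was sequenced from 6 Kasumi-1 samples, 3 in each group. The authors deposited whole-number counts per Ensembl gene and a table of RPKM values. Tools listed in the submitters' processing notes are featureCounts, HISAT2, edgeR and cutadapt 1.18, and the build is GRCh38. Strandedness of the counting, multimapping and the annotation release are not stated there. All 191796 deposited RPKM values equal counts divided by gene length and TMM-scaled library totals within a relative tolerance of 1e-06.

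Counts were filtered with filterByExpr (minimum count 10, minimum total 15), scaled by TMM and compared between groups with edgeR 4.0.16 (glmQLFit, glmQLFTest) in R 4.3.3, with Benjamini-Hochberg adjustment over 18486 genes. SEs come from the quasi-likelihood F statistic, and 95% intervals use its degrees of freedom. Fold changes are knockdown over control. DESeq2 1.42.0 and limma 3.58.1 were alternatives, with a pseudocount of 1 or 0.1 on RPKM. Positions and shared exons came from GENCODE 29, matched for 31848 of 31966 genes, and its exon lengths equal the deposited ones for 8 of the 10 members (not CDKN1C and RB1). The test was tried on simulated data.

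The members and the gene lists were chosen with earlier results of these data known. Named from each list were at most the 4 called genes with the smallest p, and in 3 lists the 2 uncalled ones with the smallest p; 1 list is not reported here. Replicate numbers were not taken as pairs, and a fit with them as a block is given below.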

Additional observations from a re-analysis of the deposited data

How the results depend on the processing

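Of 20 other settings, CCND2, CCND3 and RBL2 kept their calls in 20, and CDKN1C in the 19 that tested it. CDKN2C lost its call in 6 and CDKN1B gained one in 4, as given above. RB1 ranged from -0.267 to 0.056 when 1 library was left out and changed sign without knockdown replicate 1 (0.01) and without control replicate 1, and the cause was not tested. Called members numbered 4 to 6, with 4 to 5 when 1 library was left out. The count of all called genes, 6061, was 3923 to 6943 when 1 library was left out. Knockdown replicates 2 and 3 gave the lowest counts (3923 without replicate 2, 4017 without replicate 3). Without both GC-rich libraries 7424 genes were called, and 8485 with the GC correction. That correction also gave more calls among E2F and DP factors (7), D cyclin turnover (7), p27 turnover (4) and FOXO and AKT genes (3). The stricter filter gave no value for CCND1, CDKN2D and CDKN1C. FOXO and AKT genes had 0 edgeR calls without knockdown replicate 2 and without control replicate 3 (1 and 2 at an unadjusted p under 0.05), and 1 in DESeq2.

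A fit with the replicate number as a block called 3833 genes and 4 members, 3 genes of the cyclin-dependent kinase list in place of 5, 2 of D cyclin turnover in place of 4, and 0 of the E2F and DP factors in place of 4 (4 at an unadjusted edgeR p under 0.05). Deviations of libraries with the same number correlated at -0.284, -0.198 and 0.045, and not every library correlated best with its own number, so the numbers were not taken as pairs. With 3 libraries in a group, these correlations cannot show that pairing was absent. At 17 to 25 reads in a library, CCND1 has too little depth for a firm value, and CDKN1C at 56 to 122 reads has wide intervals. Intervals on counts cover counting error only.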
